A study of Mus musculus with 9 samples.

Results

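Homocysteine thiolactone (HTL) was compared with control in HT-22 cells, over every gene whose mean level reached 0.5 FPKM across the 6 libraries of the comparison. FPKM divides a gene's fragments by its length in kilobases and by the library's depth. The filter kept 11011 of the 21352 genes listed, and the members described here are the secreted proteins, receptors, transporters, transcription factors and noncoding genes among them. HT-22 is an immortalized mouse hippocampal cell line, labelled as neuronal and wild type, and grown in DMEM with fetal bovine serum, antibiotics and non-essential amino acids. The HTL group held 3 libraries of cells exposed to 2 mM HTL for 24 hours. The control group held 3 libraries, and what the control cells received is not given in the sources used here. A further 3 libraries, from cells that had 10 mM betaine for 4 hours and then HTL at that dose and time, entered the estimate of the spread only. RNA was bulk total RNA, so a change in the level of a transcript and a change in the share of cells that carry it cannot be told apart.

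HTL is a cyclic thioester that forms when methionyl-tRNA synthetase edits homocysteine out of its active site, and it acylates lysine side chains of proteins. Secreted proteins and receptors of a cell set which signals it sends and reads, and most are folded in the endoplasmic reticulum. Transporters set what crosses its membranes, while transcription factors and many noncoding RNAs have short-lived transcripts that follow signalling within hours.

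The 6 libraries had inferred totals of 34696352 to 39464496 mapped fragments, so that 1 fragment in a gene of 1 kilobase was worth 0.0253 to 0.0288 FPKM. Genes above 0 numbered 16441 to 16783 in a control library and 17067 to 17256 in an HTL library. Correlations across genes were 0.998 to 0.9982 within control, 0.9982 to 0.9985 within HTL and 0.9895 to 0.9898 between the groups. Of 15 neuronal markers 3 reached a mean of 0.5 FPKM, led by the tubulin gene Tubb3 at 9.10 FPKM in control, while Rbfox3, Mapt, Syt1, Gad1 and Gad2 stayed at or under 0.05 FPKM in all 6 libraries. Of 12 fibroblast and mesenchymal markers 7 reached it, led by the intermediate filament gene Vim at 1102 FPKM in control and 785 FPKM in HTL. The summed fibroblast and mesenchymal markers came to 2354 to 2403 FPKM in control and 1961 to 1978 FPKM in HTL, and the summed neuronal markers to 14.1 to 15.3 and 16.1 to 17.6 FPKM. Summed neural progenitor markers, led by the intermediate filament gene Nes (from 42.0 to 32.3 FPKM), came to 48.4 to 50.5 and 39.7 to 42.2 FPKM. Summed astrocyte markers came to 114 to 117 and 122 to 125 FPKM, nearly all from the gap junction gene Gja1 (from 112 to 121 FPKM). Of 9 astrocyte markers 2 reached a mean of 0.5 FPKM, and Gfap, Aldh1l1 and Slc1a2 stayed at or under 0.05 FPKM in all 6 libraries. The part of these shifts in the results below was not tested.

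Differences were tested on log2(FPKM + 1) with limma, two-sided, with Benjamini-Hochberg adjustment over all 11011 genes and a threshold of 0.05. At this threshold 60.2% of the tested genes were called, 39.8% higher and 20.5% lower in HTL, and for 67.2% control and HTL libraries had no overlap in level. Because calls were so frequent, a change of at least 1.5-fold on the same scale was also required for a second count, which 1.73% of the genes passed as higher and 1.45% as lower. The 190 higher genes made up 54.3% of these larger changes, against 35.5% after quantile normalization and 38.4% with size factors. Of all calls 66% were higher, against 52.1% and 49.3% under those scalings, which moved the median log2 fold change of all genes from 0.07 to 0.01 and 0.00. The small shared shift upwards thus depended on the scaling. An exact permutation test of 3 libraries against 3 cannot go below p = 0.1 for a single gene, and the labels do not say whether replicate libraries are separate cultures, so the p-values measure a spread that may be technical.

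**Figure D1:**
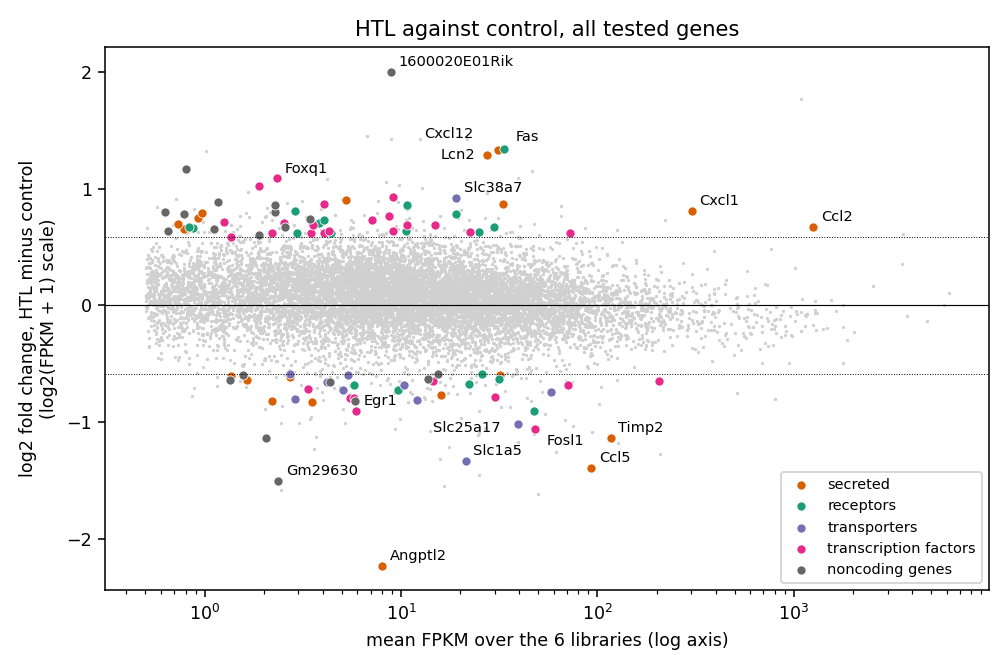
Each point is a tested gene, placed by its mean level over the 6 libraries (FPKM, log axis) and its log2 fold change (HTL minus control). Coloured points are members of the 5 classes called with at least 1.5-fold change, and the dotted lines mark that change. Angptl2 lies lowest at -2.23 and the noncoding gene 1600020E01Rik highest at 2.00.

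The share of larger changes differed by class. Of 204 tested secreted proteins (456 listed), 11 were at least 1.5-fold higher and 10 lower, 5.39% and 4.90% against the background of 1.73% and 1.45%. Of 241 receptors (564 listed), 14 were higher (5.81%) and 6 lower (2.49%). Transporters ran the other way, with 1 of 283 (569 listed) higher, or 0.353%, and 10 lower, or 3.53%. Transcription factors had 20 of 560 (833 listed) higher, 3.57%, and 9 lower, 1.61%, and noncoding genes 12 of 382 (4749 listed) higher, 3.14%, and 8 lower, 2.09%. Where transcription factors were taken by GO term, genes with symbols starting Zfp were left out. The secreted class was taken by gene family and GO term, and whether each product leaves the cell was not checked. Serpinb1a and Serpinb1b count in it as members of the serpin family, while Saa3 is not in it. These shares are counts beside the background and were not tested as sets. Counts of family members that rose or fell, given below, stand beside 39.8% and 20.5% of all genes. Lack of overlap between the groups was a condition for genes named by rule and held for 67.2% of all genes. It therefore sets none of the genes below apart.

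**Figure D2:**
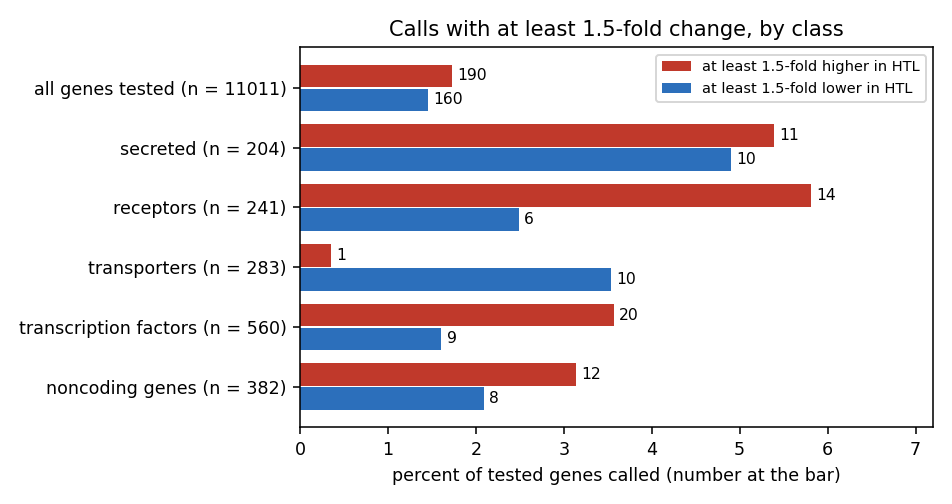
Bars give the percent of tested genes called with at least 1.5-fold change, higher (red) or lower (blue) in HTL, for all genes tested and for each class, with the number of genes at the bar. Secreted proteins and receptors had shares above 5% for rises, and transporters had 1 rise against 10 falls.

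Among secreted proteins, the sharpest fall was that of Angptl2, an angiopoietin-like glycoprotein known for roles in inflammation and matrix remodelling. Angptl2 lay at 13.3, 14.5 and 13.6 FPKM in the control libraries and 2.35, 1.94 and 2.18 FPKM in the HTL libraries. Every HTL library was under every control library, and the control mean was 6.40 times the HTL mean (log2 fold change of -2.23, SE 0.06, adjusted p = 1.81e-10, limma). The gene lies on chromosome 2 (33215951 to 33247725, plus strand, GRCm38.p6) inside Ralgps1 on the opposite strand, which went from 0.852 to 1.08 FPKM, and whether reads were counted by strand is not given in the sources used here. Its relative Angptl6 rose from 1.43 to 2.41 FPKM.

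The chemokines split. Ccl5, which attracts T cells and monocytes, stood at 130.0, 131 and 144 FPKM in the control libraries and 52.6, 50.5 and 49.3 FPKM in the HTL libraries. It fell with no overlap between the groups, unlike the 4 chemokine genes that follow, which rose (log2 fold change of -1.39, SE 0.04, adjusted p = 1.49e-09, limma). Cxcl12, the ligand of CXCR4 and of the scavenging receptor ACKR3, stood at 17.1, 17.6 and 16.8 FPKM in the control libraries and 44.3, 44.6 and 45.8 FPKM in the HTL libraries, a rise to 2.61 times the control mean (log2 fold change of 1.33, SE 0.03, adjusted p = 9.44e-11). The neutrophil attractant Cxcl1 rose from 219 ± 1.92 to 385 ± 10.98 FPKM (SD, n = 3 each), and the monocyte attractants Ccl2 and Ccl8 from 969 ± 9.38 to 1544 ± 17.6 FPKM and from 3.36 ± 0.45 to 7.13 ± 0.406 FPKM. Ackr3 itself fell from 14.5 to 11.7 FPKM, while Cxcr4 did not pass the filter. Ligand and scavenging receptor thus moved in opposite directions.

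Other rises were carriers and protease inhibitors. Lcn2, a siderophore-binding lipocalin of the acute phase, lay at 15.0, 15.1 and 16.2 FPKM in the control libraries and 39.7, 39.4 and 38.5 FPKM in the HTL libraries. The groups were far apart, with the highest control library well under the lowest HTL library (log2 fold change of 1.29, SE 0.03, adjusted p = 1.83e-10, limma). Hp, which binds free haemoglobin, rose at a low level from 0.441 ± 0.159 to 1.42 ± 0.0842 FPKM. Serpinb1a, an inhibitor of neutrophil serine proteases, rose from 23.1 to 42.9 FPKM, and its close copy Serpinb1b from 0.429 to 1.499 FPKM. Both values are uncertain where reads were shared between the copies. The acute-phase gene Saa3, not counted in the class, had the second largest rise over all genes. It went from 491 ± 12.1 to 1681 ± 16.4 FPKM and belongs to a family of near copies too.

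Proteases and their inhibitors moved both ways. Timp2, an inhibitor of matrix metalloproteinases that also takes part in activating proMMP2, fell from 164, 158 and 162 FPKM in the control libraries to 75.1, 70.0 and 72.7 FPKM in the HTL libraries (log2 fold change of -1.14, SE 0.03, adjusted p = 1.81e-10, limma). All 3 HTL libraries lay far under all 3 control libraries. Mmp2, the gelatinase, rose from a low level of 0.332 ± 0.236 to 1.14 ± 0.18 FPKM, and the membrane-bound Mmp14 rose from 38.9 to 45.5 FPKM. Timp1 fell from 103 to 85.8 FPKM and Timp3 rose from 6.85 to 9.01 FPKM. Of the 22 tested metalloproteinases, ADAMTS proteases and inhibitors, 9 rose and 8 fell, with a median log2 fold change of 0.01. That median turned to -0.09 after quantile normalization, with 6 higher and 10 lower, and to -0.02 with size factors, with 8 and 10, so its sign depended on the scaling. Adamts14, a procollagen N-proteinase, fell from 3.10 to 1.32 FPKM.

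Genes that set the cross-linking and turnover of matrix fell in part. Loxl1, a lysyl oxidase of elastic fibres, fell from 5.12, 4.67 and 4.50 FPKM to 2.03, 2.65 and 2.09 FPKM, while Lox rose from 99.7 to 113 FPKM. Within 1 enzyme family the direction therefore differed by member. Plaur, the urokinase receptor, fell from 24.1 to 17.2 FPKM. The activators Plat and Plau went from 18.8 to 19.5 FPKM and from 3.15 to 3.34 FPKM without passing the threshold. In this group of 7 genes of fibrinolysis and clotting 2 rose and 2 fell, and 0 and 2 with size factors.

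Growth factors and their modulators moved in both directions. Of 26 tested ligands of receptor tyrosine kinases 11 rose (42.3%) and 5 fell (19.2%), near the 39.8% and 20.5% of all genes. Their median was 0.11 against 0.07 over all genes, and 9 rose and 7 fell under either other scaling. Pdgfc rose from 9.52 to 14.2 FPKM, along with the receptors Pdgfra and Pdgfrb described below, whereas Pdgfa went from 4.11 to 3.84 FPKM and did not pass. Gas6, the ligand of the TAM receptors, fell from 3.51 to 1.95 FPKM. Its receptor genes differed, since Axl fell from 76.2 to 63.4 FPKM and Tyro3 rose from 10.1 to 12.7 FPKM. The BMP modulator Bmper rose from 14.9 to 21.3 FPKM, the latency protein Ltbp1 fell from 47.7 to 35.5 FPKM, and Tgfb1 itself fell from 25.8 to 18.9 FPKM. Notum, a lipase that inactivates Wnt ligands, fell from 2.22 to 1.07 FPKM. C1qtnf12, an adipokine of the C1q family, fell from 38.5 to 25.1 FPKM, and Tnfsf13, the ligand APRIL, rose from 0.388 to 1.19 FPKM. Among interleukins and colony-stimulating factors 2 of 14 rose and 5 fell, and among complement genes 4 of 9 rose and 0 fell, with C1s1 going from 11.7 to 17.1 FPKM (limma; at an unadjusted p under 0.05, again 4 and 0). The 44.4% of complement genes that rose lies near the 39.8% of all genes, and 4 rose and 1 fell after quantile normalization.

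**Figure D3:**
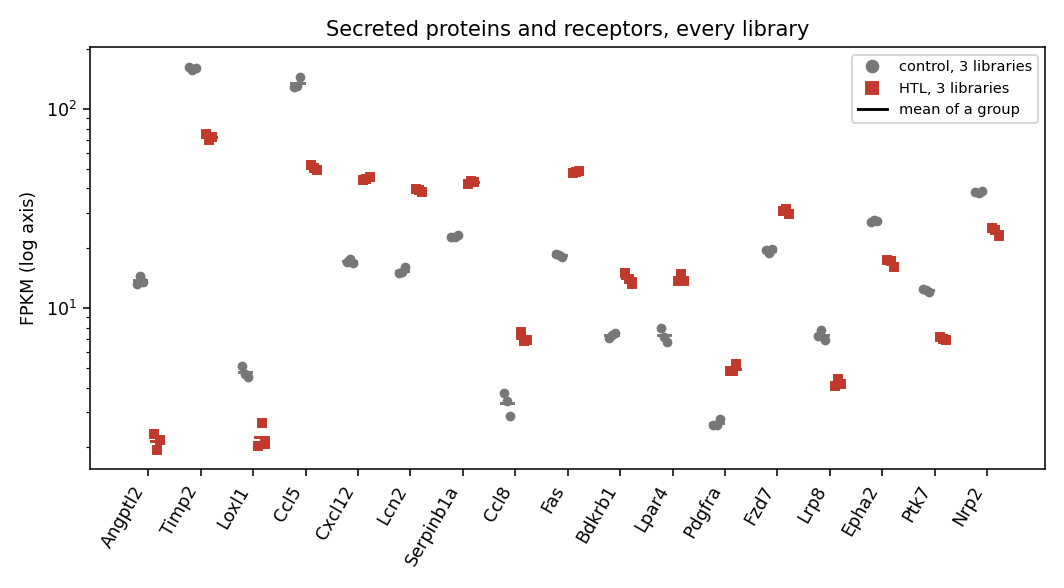
Points are single libraries (FPKM, log axis) of 17 secreted proteins and receptors, control as grey circles and HTL as red squares, with a bar at each group's mean. Angptl2 has the widest gap, from 13.8 to 2.16 FPKM. No gene shown has overlapping groups, which was a condition for genes named by rule and held for 67.2% of all tested genes.

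Of the 241 receptors tested, 121 rose and 47 fell, 50.2% and 19.5% against 39.8% and 20.5% of all genes, with a median of 0.14 against 0.07, and 95 and 70 after quantile normalization. Fas, the death receptor that recruits FADD and caspase 8, gave 18.8, 18.6 and 18.0 FPKM in the control libraries and 48.1, 48.2 and 48.9 FPKM in the HTL libraries. It had the largest change of any receptor tested (log2 fold change of 1.34, SE 0.03, adjusted p = 9.44e-11, limma), and its libraries within a group differed by under 1 FPKM. The adaptor gene Fadd rose from 6.14 to 8.13 FPKM, while Casp8 went from 7.96 to 9.09 FPKM without passing the threshold and the ligand gene Faslg did not pass the filter. In the tumour necrosis factor receptor superfamily 7 of 13 rose (53.85%) and 3 fell (23.1%), and 5 and 3 under either other scaling. Among the falls was Tnfrsf9, or 4-1BB, from 22.7 to 15.6 FPKM.

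G protein-coupled receptors contributed 4 of the larger rises. Bdkrb1, the bradykinin receptor that is made on demand after injury and binds the des-Arg kinins, measured 7.10, 7.36 and 7.54 FPKM in the control libraries and 15.1, 14.1 and 13.2 FPKM in the HTL libraries. The groups did not overlap (log2 fold change of 0.86, SE 0.06, adjusted p = 3.71e-07, limma). Bdkrb2, the constitutive bradykinin receptor, rose from 3.98 to 4.52 FPKM. Lpar4, a receptor for lysophosphatidic acid, rose from 7.33 ± 0.614 to 14.04 ± 0.674 FPKM, while Lpar6 fell from 2.92 to 2.48 FPKM and Lpar1 at 6.93 and 7.25 FPKM did not pass. Pth1r, the parathyroid hormone receptor, rose from 0.447 to 1.29 FPKM, and Gpr39, a zinc-sensing receptor, from 2.11 to 3.78 FPKM.

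Receptors of innate immunity and of cytokines followed. Tlr2, which senses bacterial lipopeptides, rose from 22.6 ± 0.774 to 36.5 ± 0.649 FPKM, and Ly96, the MD-2 subunit of the endotoxin receptor, from 2.80 to 5.29 FPKM. Of their partners, Cd14 rose from 5.55 to 6.32 FPKM, and Tlr4 at 7.76 and 8.27 FPKM did not pass. Rigi, a sensor of viral RNA, fell from 17.7 to 13.4 FPKM. Over the 15 pattern recognition receptors 6 rose and 3 fell, shares close to those of all genes, and 4 rose and 4 fell under either other scaling. The receptor chains Il6st and Lifr, which carry signals of the interleukin 6 family, rose from 83.1 to 106 FPKM and from 5.62 to 7.63 FPKM. Ghr, the growth hormone receptor, rose from 8.04 to 13.1 FPKM, and Il1r1 fell from 8.06 to 5.97 FPKM. Of the 24 cytokine and interferon receptors 12 rose (50%) and 4 fell (16.7%), against 39.8% and 20.5% of all genes, and 11 and 6 after quantile normalization.

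Receptor tyrosine kinases moved in both directions, with 15 of 28 higher (53.6%) and 7 lower (25%), against 39.8% and 20.5% of all genes. Under either other scaling 14 were higher and 8 lower. Pdgfra rose from 2.59, 2.59 and 2.77 FPKM to 4.82, 4.85 and 5.22 FPKM and Pdgfrb from 6.78 to 9.42 FPKM. The catalytically inactive Eph receptor Ephb6 rose from 0.411 to 1.25 FPKM and Ephb4 from 17.01 to 22.6 FPKM, while Epha2 fell from 27.2, 27.8 and 27.5 FPKM to 17.4, 17.2 and 16.1 FPKM (log2 fold change of -0.67, SE 0.05, adjusted p = 4.82e-07, limma). The ligand gene Efna4 rose from 3.26 to 5.55 FPKM. Ephrins and Eph receptors therefore changed member by member rather than as a block. Ptk7, a pseudokinase of planar cell polarity, fell from 12.3 ± 0.22 to 7.05 ± 0.129 FPKM, and Nrp2, a coreceptor for semaphorins and VEGF, from 38.3 ± 0.421 to 24.5 ± 1.14 FPKM. The guidance ligand Slit2 fell from 3.67 to 2.61 FPKM and Sema3g rose from 1.53 to 2.71 FPKM.

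Receptors of developmental pathways mostly rose. Of 23 genes for Wnt, Notch and Hedgehog receptors (the Notch ligands Jag1 and Jag2 included) 14 rose and 2 fell, with a median of 0.24, and 12 rose and 4 fell after quantile normalization. Fzd7, a Wnt receptor, rose from 19.5 ± 0.453 to 30.7 ± 0.927 FPKM, and its coreceptor Lrp6 from 9.69 to 14.4 FPKM. Ptch1, the Hedgehog receptor that holds Smoothened in check, rose from 8.08 to 11.6 FPKM, while Smo fell from 24.5 to 19.4 FPKM. Of 8 tested receptors of the TGF-beta and BMP family 7 rose and 1, Tgfbr2, fell (from 19.8 to 17.6 FPKM). Under quantile normalization and size factors 4 rose and 1 fell, so the count of rises depended on the scaling. Acvr1b, an activin receptor, rose from 9.88 to 13.8 FPKM.

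Endocytic lipoprotein receptors were the receptor group with the most large falls. Lrp8, a receptor of reelin, measured 7.30, 7.82 and 6.96 FPKM in the control libraries and 4.06, 4.42 and 4.19 FPKM in the HTL libraries (log2 fold change of -0.68, SE 0.05, adjusted p = 1.47e-06, limma). No library overlapped between the groups. Lower levels were also found for other members, with falls of Lrp1 from 31.3 ± 0.357 to 20.5 ± 1.32 FPKM and of Vldlr from 6.58 to 4.50 FPKM. In all, 7 of 16 lipoprotein and scavenger receptors fell and 5 rose, and 8 and 3 after quantile normalization. The rises were small, the highest being that of Lrp12 (from 15.2 to 18.2 FPKM).

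**Figure D4:**
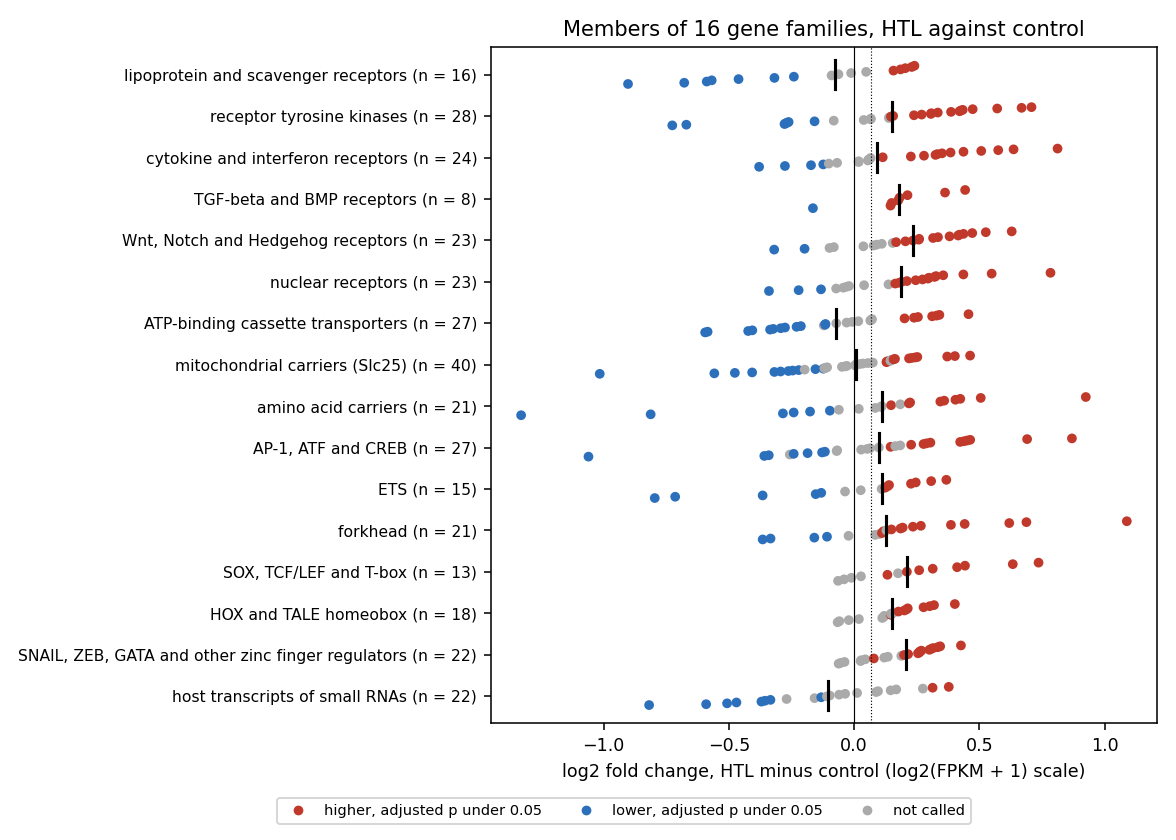
Each point is a tested member of 1 of 16 families, placed by its log2 fold change (HTL minus control), red or blue where it was called higher or lower and grey where it was not. The black bar is the family's median, the solid line is 0 and the dotted line is the median of all tested genes. SOX, HOX and zinc finger regulators show no called falls. The 22 genes listed as host transcripts of small RNAs, which leave out Dleu2, have 8 falls and 2 rises.

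Transporters had few large rises and more large falls. Of the 283 tested, 106 rose and 74 fell, 37.5% and 26.2% against 39.8% and 20.5% of all genes, and 70 rose and 98 fell after quantile normalization, where the class median turned from 0.05 to -0.01. The direction of the class as a whole therefore depended on the scaling. Slc1a5, the neutral amino acid exchanger ASCT2 that carries glutamine, gave 30.9, 30.3 and 31.7 FPKM in the control libraries and 11.6, 11.97 and 11.6 FPKM in the HTL libraries (log2 fold change of -1.33, SE 0.04, adjusted p = 3.5e-10, limma). Its nearest relative Slc1a4, or ASCT1, a carrier of alanine, serine and cysteine, fell from 15.6 ± 0.124 to 8.46 ± 0.24 FPKM. The sole larger rise was Slc38a7, a lysosomal exporter of glutamine and asparagine, at 13.0, 12.7 and 12.8 FPKM in the control libraries and 25.7, 24.96 and 25.3 FPKM in the HTL libraries (log2 fold change of 0.93, SE 0.03, adjusted p = 1.52e-09, limma). The lysosomal carrier and both plasma membrane exchangers thus moved in opposite directions. Other amino acid carriers changed by less, with Slc3a2, the heavy chain of the cystine and leucine exchangers, rising from 39.8 to 53.7 FPKM, Slc7a5 falling from 142 to 125 FPKM, and Slc36a1, a lysosomal proton-coupled carrier, rising from 6.73 to 9.98 FPKM. Over the 21 amino acid carriers 9 rose and 6 fell, near the share of all genes for rises, and 8 and 7 after quantile normalization.

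The other large falls came from organelle and ion transport. Slc25a17, the peroxisomal carrier of coenzyme A, FAD and NAD, lay at 52.4, 52.1 and 55.0 FPKM in the control libraries and 25.8, 24.2 and 27.4 FPKM in the HTL libraries. No other of the 40 tested Slc25 carriers reached a change of 1.5-fold. Of these 40, 12 rose (30.0%) and 11 fell (27.5%), against 39.8% and 20.5% of all genes, and 6 rose and 17 fell after quantile normalization and 7 and 17 with size factors. Slc30a4, a zinc exporter, fell from 72.8 ± 1.74 to 43.2 ± 1.03 FPKM (log2 fold change of -0.74, SE 0.04, adjusted p = 3.77e-08, limma). Slc5a3, the sodium-coupled myo-inositol transporter, fell from 6.56 to 3.58 FPKM; it lies inside Mrps6, which went from 78.2 to 72.9 FPKM, so its reads may be shared. Slc2a6, a facilitative hexose transporter, fell from 13.1 to 7.73 FPKM. Stim2, which senses calcium in the endoplasmic reticulum and opens ORAI channels, fell from 4.06, 4.15 and 3.64 FPKM to 1.74, 1.64 and 2.16 FPKM, and Stim1 by less, from 9.74 to 8.42 FPKM, while Orai1 rose from 4.90 to 5.85 FPKM. The plasma membrane calcium pump Atp2b1 fell from 21.5 to 14.8 FPKM. Sensors and pump of the same ion thus fell, while the channel gene rose.

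ATP-binding cassette transporters fell more often than they rose, 12 against 7 of 27 (44.4% and 25.9%), and 15 against 8 after quantile normalization. Of all genes 20.5% fell and 39.8% rose. Abca2 and Abca7, both transporters of lipids, fell from 6.64 ± 0.257 to 4.05 ± 0.11 FPKM and from 3.47 ± 0.0422 to 1.98 ± 0.234 FPKM. Tap1 and Tap2, which pump peptides into the endoplasmic reticulum for class I antigen presentation, rose from 21.9 to 27.9 FPKM and from 27.1 to 37.5 FPKM. Slc27a4, a fatty acid transport protein, rose from 12.2 to 18.0 FPKM, and the anion exchanger Slc4a2 from 18.3 to 26.1 FPKM. Of 9 tested potassium channel genes 2 fell and 0 rose (limma; at an unadjusted p under 0.05, again 2 and 0). The weaker of them, Kcnab2 at 3.00 and 2.65 FPKM, lost its call when control replicate 1 or 3 or HTL replicate 1 or 2 was left out, with adjusted p from 0.0791 to 0.122 by limma, and at 0.0707 with no filter.

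**Figure D5:**
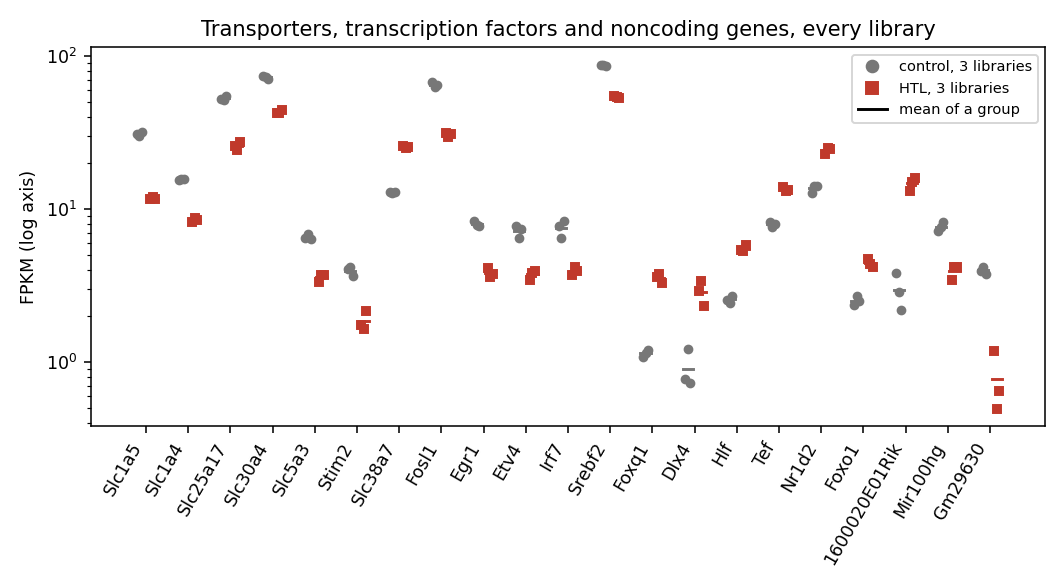
Points are single libraries (FPKM, log axis) of transporters, transcription factors and noncoding genes, control as grey circles and HTL as red squares, with a bar at each group's mean. Slc38a7 is the sole transporter shown that rose. The groups do not overlap for any gene shown, which was a condition for genes named by rule and held for 67.2% of all tested genes.

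Transcription factors rose more often than they fell, 291 against 74 of 560, or 52.0% and 13.2% against 39.8% and 20.5% of all genes, with a median of 0.14, and 216 against 116 after quantile normalization. These counts leave out the zinc finger genes with symbols starting Zfp that a GO term alone would have added. The fall of Fosl1 was the largest in the class. Fosl1, the AP-1 subunit FRA-1, measured 67.5, 62.6 and 64.9 FPKM in the control libraries and 31.2, 29.7 and 30.9 FPKM in the HTL libraries (log2 fold change of -1.06, SE 0.05, adjusted p = 2.58e-08, limma). It overlaps Ccdc85b, which went from 14.4 to 10.6 FPKM, so part of its reads could be shared. The other AP-1 subunits differed, since Jun fell from 19.4 to 16.3 FPKM, Junb rose from 70.7 to 96.2 FPKM and Fosl2 rose from 21.5 to 26.5 FPKM, whereas Fos at 0.895 and 0.594 FPKM did not pass. Egr1, an immediate early zinc finger factor, fell from 8.34, 7.83 and 7.76 FPKM to 4.09, 3.58 and 3.74 FPKM. The ETS factors Etv4 and Etv5, both induced by FGF and MAPK signalling, fell from 7.22 ± 0.643 to 3.73 ± 0.267 FPKM and from 4.40 ± 0.171 to 2.29 ± 0.17 FPKM. They were the only 2 of 15 tested ETS factors with a change of 1.5-fold. In the family 7 rose (46.7%) and 5 fell (33.3%), but 4 rose and 6 fell after quantile normalization and 4 and 5 with size factors, so the balance depended on the scaling.

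Other regulators fell too. Hmga2, an architectural chromatin factor of embryonic and transformed cells, fell from 38.2 ± 0.239 to 21.8 ± 0.654 FPKM (log2 fold change of -0.78, SE 0.04, adjusted p = 3.33e-08, limma). Irf7, a driver of interferon genes, fell from 7.79, 6.51 and 8.38 FPKM to 3.70, 4.15 and 3.93 FPKM, and Srebf2, the activator of sterol genes, from 87.5 ± 1.14 to 54.2 ± 0.49 FPKM. Cc2d1b, a transcriptional repressor, fell from 17.9 to 11.1 FPKM.

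The larger rises held several forkhead and homeobox genes. Foxq1, a forkhead factor, stood at 1.08, 1.14 and 1.19 FPKM in the control libraries and 3.59, 3.74 and 3.31 FPKM in the HTL libraries (log2 fold change of 1.09, SE 0.06, adjusted p = 1.05e-07, limma). Each HTL library held about 3 times the level of a control library. Foxf2 rose from 11.1 ± 0.387 to 18.5 ± 0.332 FPKM and Foxo1, which AKT keeps out of the nucleus, from 2.52 ± 0.164 to 4.41 ± 0.277 FPKM. In the forkhead family 13 of 21 rose and 4 fell, and 9 rose and 4 fell after quantile normalization. Of homeobox genes, Dlx4 rose from 0.771, 1.21 and 0.73 FPKM to 2.91, 3.40 and 2.31 FPKM and Msx1 from 6.91 ± 0.1 to 11.3 ± 0.986 FPKM, while Dlx2 fell from 3.36 to 2.76 FPKM. Of 18 HOX and TALE genes 9 rose and 0 fell, Pbx3 by the most (from 4.62 to 6.40 FPKM), and 7 rose and 1 fell under either other scaling (limma; at an unadjusted p under 0.05, again 9 and 0). Among SOX, TCF/LEF and T-box factors 8 of 13 rose and 0 fell, led by Hbp1, a repressor of Wnt and cell cycle genes (from 5.08 to 9.11 FPKM), and Sox4 (from 17.4 to 27.6 FPKM). After quantile normalization 5 rose and 1 fell, and at an unadjusted p under 0.05 by limma again 8 rose and 0 fell.

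The PAR bZIP factors Hlf and Tef, which bind D-box elements and cycle with the circadian clock, rose together. Hlf lay at 2.56, 2.43 and 2.70 FPKM in the control libraries and 5.39, 5.33 and 5.81 FPKM in the HTL libraries (log2 fold change of 0.87, SE 0.05, adjusted p = 2.51e-07, limma), and Tef at 8.23, 7.61 and 8.02 and 13.9, 13.1 and 13.3 FPKM. Their relative Dbp rose from 2.28 to 3.52 FPKM. Nr1d2, the nuclear receptor REV-ERB beta that represses clock genes, rose from 13.7 ± 0.819 to 24.3 ± 1.05 FPKM and Nr1d1 from 3.54 to 4.49 FPKM. All 5 lay higher in every HTL library than in any control library, where 67.2% of all tested genes had no overlap in either direction. Of the 23 nuclear receptors 14 rose and 3 fell, and 12 and 6 after quantile normalization. Nupr1, a small chromatin protein induced by stress, rose from 56.9 ± 3.54 to 88.2 ± 4.50 FPKM. The calcium-responsive factors Nfatc1 and Nfatc4 rose from 3.14 to 5.43 FPKM and from 2.98 to 5.12 FPKM, and Crebrf, which promotes the breakdown of CREB3, from 1.53 to 2.88 FPKM. Klf2 rose from 1.09 to 2.04 FPKM, Bach1, a haem-regulated repressor, from 4.89 to 7.42 FPKM, and the chromatin organiser Ctcf from 8.398 to 11.6 FPKM. Among 22 zinc finger regulators of the GATA, ZEB, SNAIL and related families 13 rose and 0 fell by limma, 15 and 0 at an unadjusted p under 0.05, and 10 rose and 1 fell after quantile normalization. The class takes some members from a GO term alone, and Hmox1, Pink1 and Pim1 in it are not DNA-binding factors.

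The start sites of these genes were read for short motifs in the RefSeq promoter windows of GRCm38.p6, from 250 bases before to 50 bases after the start. A window was found for 8892 tested genes, among them 146 of the 190 genes with a rise of at least 1.5-fold and 120 of the 160 with such a fall. The forkhead motif GTAAACA lay on either strand in 12 of the 146 (8.22%), in 6 of the 120 (5.00%) and in 2.98% of all windows. The AP-1 motif TGANTCA lay in 7 of the 146 (4.79%), in 15 of the 120 (12.5%) and in 5.90% of all windows. The E-box CACGTG was in 15.1% of the rising and 10.0% of the falling genes against 12.2%, and the CRE TGACGTCA in 4.11% and 1.67% against 3.74%. TGACGCAA, TTATGTAA and TTANGTAA (which holds TTATGTAA) were each in at most 2 genes of a direction, CCAAT was in 73 of the 146 and 61 of the 120 against 43.9% of all windows, and GGGCGG in 62.3% and 70.0% against 71.3%. These 9 motifs were chosen with the lists of changed genes known, and the shares are a description. The windows below show the 2 genes with the largest rise that hold the forkhead motif before the start, and the 2 with the largest fall that hold the AP-1 motif there, among genes with full symbols. Capitals mark the motif as read on the gene's strand.
Anxa8, chr14:34085756-34085816, plus strand: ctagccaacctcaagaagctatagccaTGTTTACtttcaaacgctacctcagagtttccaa
Txnip, chr3:96557809-96557869, plus strand: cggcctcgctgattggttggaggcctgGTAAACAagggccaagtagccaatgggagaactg
Sprr1a, chr3:92485994-92486054, minus strand: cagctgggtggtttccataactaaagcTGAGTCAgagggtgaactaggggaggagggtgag
Msmo1, chr8:64733672-64733732, minus strand: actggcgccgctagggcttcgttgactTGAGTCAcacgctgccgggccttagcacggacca

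Those 4 genes were among the larger changes of the comparison. Anxa8, an annexin, rose from 11.4 to 32.2 FPKM, and Txnip, which binds thioredoxin and curbs glucose uptake, from 4.35 to 13.3 FPKM. Sprr1a, a cornified envelope protein, fell from 79.6, 71.6 and 74.6 FPKM to 26.0, 23.5 and 22.2 FPKM, and the sterol enzyme gene Msmo1 from 128 to 59.98 FPKM. The forkhead match in Txnip starts 121 bases before the start site, and the AP-1 match in Sprr1a 146 bases before it.

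Of 4749 noncoding genes listed 382 passed the filter. Of those tested 81 rose and 58 fell, 21.2% and 15.2% against 39.8% and 20.5% of all genes, and 51 rose and 92 fell after quantile normalization, where the median turned from 0.06 to -0.04. The direction of the class thus depended on the scaling. 1600020E01Rik, a long noncoding RNA on chromosome 6 (86527330 to 86564449, plus strand, GRCm38.p6), had the largest rise of all genes tested. It measured 3.84, 2.88 and 2.19 FPKM in the control libraries and 13.1, 14.9 and 16.1 FPKM in the HTL libraries, and the HTL mean was 4.95 times the control mean (log2 fold change of 2.00, SE 0.12, adjusted p = 2.11e-07, limma). Its start lies 1141 bases from that of Pcbp1, a coding gene on the opposite strand, which lay at 216 FPKM in control and 216 FPKM in HTL (log2 fold change of 0.00, SE 0.04, adjusted p = 0.975, limma).

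The largest falls among noncoding genes were 2 neighbours on the minus strand of chromosome 1. Gm29630 (132268601 to 132278378) measured 3.96, 4.18 and 3.75 FPKM in the control libraries and 1.17, 0.494 and 0.645 FPKM in the HTL libraries, and Gm38446 (132278515 to 132291356) 2.63, 3.61 and 3.35 FPKM in the control libraries and 1.08, 0.711 and 0.941 FPKM in the HTL libraries. Every HTL library of either gene was under every control library. The nearest coding gene above them, Klhdc8a on the plus strand, fell by less, from 16.4 to 12.5 FPKM. Gm12602, 9144 bases from Mtap, fell from 5.53 to 3.17 FPKM, and Mtap itself from 116 to 93.5 FPKM.

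The family of small nucleolar RNA hosts also took in Mir100hg, but not Dleu2. In it 8 of 22 genes fell and 2 rose, with a median of -0.10, and 8 and 2 after quantile normalization. Snhg5, a host of small nucleolar RNAs, fell from 16.3, 19.6 and 20.2 FPKM to 10.9, 12.8 and 12.5 FPKM (log2 fold change of -0.59, SE 0.08, adjusted p = 7.5e-05, limma). Gas5 fell from 197 to 152 FPKM and Snhg6 from 29.4 to 20.8 FPKM, while Snhg20 rose from 14.4 to 18.9 FPKM. Mir100hg on chromosome 9 gave 7.16, 7.62 and 8.27 FPKM in the control libraries and 3.41, 4.18 and 4.19 FPKM in the HTL libraries (log2 fold change of -0.82, SE 0.07, adjusted p = 2.73e-06, limma). RefSeq places Mir100, Mirlet7a-2 and Mir125b-1 within it. Dleu2 on chromosome 14, which spans Mir15a and Mir16-1, was counted among the named long noncoding RNAs (3 of 19 rose and 3 fell). It moved the other way at a lower level, from 0.591, 0.8 and 0.703 FPKM to 1.59, 1.39 and 1.42 FPKM. The mature sequences below are those RefSeq gives for these hosts (GRCm38.p6), shown because the hosts carry them; the seed, bases 2 to 8, is in capitals.
mmu-miR-100-5p, in Mir100hg: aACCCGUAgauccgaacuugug
mmu-miR-125b-5p, in Mir100hg: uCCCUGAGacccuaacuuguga
mmu-miR-15a-5p, in Dleu2: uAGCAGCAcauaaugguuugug
mmu-miR-16-5p, in Dleu2: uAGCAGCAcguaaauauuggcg

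The pair in Dleu2 shares 1 seed, and the pair in Mir100hg has different ones. Levels of the mature miRNAs were not analysed here, so the host transcripts' values say nothing of them directly. Ptgs2os, on the opposite strand of the cyclooxygenase 2 gene, fell from 1.33 to 0.622 FPKM, and Map2k3os from 1.86 to 0.829 FPKM. Zfp335os rose from 3.14 to 4.67 FPKM. Values of antisense genes are uncertain, since whether reads were counted by strand is not given in the sources used here. BC051226 and Gm12841 were among the 12 noncoding genes at least 1.5-fold higher, a count that was 10 with no filter. BC051226 lost its call when the filter on low values was dropped (adjusted p = 0.052, limma). Gm12841 lay at 0.383, 0.172 and 0.189 FPKM in control and 2.04, 0.676 and 0.429 FPKM in HTL. Its adjusted p by limma was 0.105 with no filter, 0.0661 after quantile normalization and 0.0689 and 0.0629 without control replicate 2 or 3. Without HTL replicate 1, its highest library, the log2 fold change of Gm12841 went from 0.64 to 0.315, and the call held at an adjusted p of 0.0457.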

How the data were processed

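The authors deposited FPKM values per gene and library, per the file headers, with symbols, Entrez identifiers and GO terms for 21352 genes. The tools named in the submitters' processing notes are HTSeq, HISAT2, fastp and R 3.2.0, with build mm10; the sources used here give neither options nor strand setting. Depth per library was inferred from the steps of low values, with 99.2% of the shortest genes giving whole lengths within 0.02 bases.

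The 11011 genes averaging 0.5 FPKM or more over control and HTL were fitted as log2(FPKM + 1) by limma 3.58.1 (R 4.3.3), all 9 libraries sharing the spread (6 residual degrees of freedom) and an intensity trend. Fold changes on this scale understate low genes. The fit was tested on simulated data. Replicates differed beyond counting noise (chi-square per degree of freedom 2.86 to 5.69), so none was a copy.

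Classes came from symbol lists and GO terms. The members and lists were chosen with earlier results of these data known. Named genes were, per class, the 4 largest rises and 4 largest falls without overlap of libraries, and per family the largest of each; the other members past 1.5-fold, and ligands, receptors, subunits or neighbours of named genes, were added after values were seen. Positions and sequences were matched by Entrez identifier to RefSeq GRCm38.p6 for 20699 genes. Genes not named may be among those not reported here. Alternatives were the pseudocount, filters, scalings, samples in the fit, a replicate block, the trend and leaving out each library.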

Additional observations from a re-analysis of the deposited data

How the results depend on the processing

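Alternatives were followed for 209 genes: those named by rule, class members past 1.5-fold and tested members of the groups in the closing section. Other genes named in the text were not followed. No gene of the 209 with a call turned its direction under any alternative run. Of 3057 pairs of a gene and an alternative 3022 kept their side of the threshold, 32 lost their call and 3 gained one. For genes without a call the direction was not tracked. Calls were lost for 12 genes, all with small or uneven changes, among them F3, Gdf11, Gjc1, Kcnab2, BC051226 and Gm12841. Counts of genes past 1.5-fold moved by more, since a pseudocount of 0.1 gives low genes larger fold changes and a filter at 5 FPKM tests fewer genes. Genes at least 1.5-fold higher numbered 518 with the pseudocount of 0.1, 99 with the filter at 5 FPKM and 116 after quantile normalization, and genes lower 250 with that pseudocount. With the pseudocount of 0.1, higher members numbered 21 secreted, 30 receptors, 4 transporters, 55 transcription factors and 36 noncoding genes, and 27 noncoding genes were lower. With the filter at 5 FPKM, 6 secreted proteins, 7 receptors, 9 transcription factors and 1 noncoding gene were higher, and 5 secreted proteins and 3 noncoding genes lower. After quantile normalization 8 receptors were higher and 16 noncoding genes lower, and with size factors 12 transcription factors were higher; the cause was not tested. Of 1500 family counts under the alternatives 1346 were within 1.5 times the reported count.

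Leaving out 1 library at a time gave 3900 to 4117 genes higher and 2021 to 2112 lower, and 182 to 207 and 152 to 166 past 1.5-fold. With the replicate block 4300 genes were higher and 2226 lower, and 189 and 161 past 1.5-fold. Deviations of same-numbered control and HTL libraries correlated at 0.02, 0.027 and -0.014, and those of differently numbered ones at -0.083 to 0.065. No pairing by number showed. The noise of single genes could hide one, so a culture or day shared by same-numbered libraries is not excluded. FPKM near 0.5 rest on few fragments in short genes, which limits noncoding genes most.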

Other observations

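The 4 groups of transcripts given here were put together after the values of these genes had been seen, so their counts describe these libraries and support nothing. Of 10 transcripts used elsewhere as a readout of MAPK activity 8 were tested and 8 were lower, where 20.5% of all genes were lower. Their median log2 fold change was -0.63 against 0.07 over all genes, and -0.69 and -0.70 under quantile normalization and size factors. Ccnd1, the G1 cyclin, fell from 65.4 to 29.9 FPKM, the phosphatase genes Dusp6 and Dusp4 from 7.94 to 4.93 FPKM and from 14.1 to 9.97 FPKM, and Phlda1 from 27.03 to 18.4 FPKM. Spry2, a feedback inhibitor, fell from 2.67 to 2.16 FPKM and lost its call without control replicate 1 (limma adjusted p = 0.0548).

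Of 31 transcripts known as targets of FOXO factors or encoding them 29 were tested, 25 higher and 2 lower, against 39.8% and 20.5% of all genes, with a median of 0.43. With size factors 24 were higher, and Foxo3 (from 34.4 to 37.2 FPKM) lost its call at a limma adjusted p of 0.212. Ccng2, an atypical cyclin, rose from 5.27 to 9.88 FPKM, Irs2, the insulin receptor substrate, from 1.72 to 3.41 FPKM, Fbxo32, a ubiquitin ligase subunit, from 1.21 to 2.94 FPKM, and Cited2, a CBP/p300 partner, from 66.5 to 106 FPKM. Of autophagy genes in the group Atg14 rose from 2.84 to 5.02 FPKM, Map1lc3b from 67.4 to 98.6 FPKM and Ulk1 from 8.01 to 10.9 FPKM. The 2 falls were those of the mitochondrial BH3 genes Bnip3 (from 77.6 to 64.1 FPKM) and Bbc3 (from 5.99 to 5.05 FPKM), the latter with an adjusted p of 0.0516 by limma without control replicate 2.

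Of 9 transcripts known to be cut by the endoplasmic reticulum nuclease IRE1 8 were tested, with a median of -0.39. Of these 6 were lower and 2 higher, against 20.5% and 39.8% of all genes. Bloc1s1, the substrate most used as a marker of that activity, fell from 34.4 to 15.6 FPKM (log2 fold change of -1.09, SE 0.08, adjusted p = 6.66e-07 by limma). Hgsnat fell from 6.84 to 3.25 FPKM, Col6a1 from 32.9 to 17.1 FPKM and Tapbp from 91.0 to 57.3 FPKM. Sparc and Ergic3 fell by little, from 409.5 to 383 FPKM and from 66.2 to 61.1 FPKM, and their calls were lost under some alternatives, while Pdgfrb and Pmp22 rose from 6.78 to 9.42 FPKM and from 62.5 to 88.3 FPKM. Xbp1 itself, whose transcript IRE1 splices, went from 26.4 to 25.1 FPKM without passing the threshold.

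Of 13 genes of circadian output and feedback 9 were higher and 0 lower by limma, against 39.8% and 20.5% of all genes. Their median was 0.39, and 8 were higher under either other scaling. Besides Hlf, Tef, Dbp, Nr1d1 and Nr1d2, Per1 rose from 4.13 to 5.93 FPKM, Per2 from 0.481 to 1.16 FPKM and Cry1 from 7.29 to 9.86 FPKM, while Per3 at 1.02 and 0.985 FPKM and Ciart at 4.804 and 4.64 FPKM did not pass. Bhlhe41, the ninth, rose from 3.11 to 3.597 FPKM and lost its call under both other scalings. Time of day at harvest is not given in the sources used here, and its part in these values was not tested.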
